A study of Mus musculus with 27 samples.

Results

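The genes described here encode the enzymes that remove superoxide and hydrogen peroxide without selenium: the peroxiredoxins Prdx1 to Prdx6, the superoxide dismutases Sod1, Sod2 and Sod3, and catalase, Cat. Their rows were taken by gene symbol, and all 10 were found among the 19392 genes of the expression table and among the 18188 genes tested. The left kidneys of C57BL/6 mice were clamped at the renal pedicle for 0 (sham), 16, 18, 20, 22, 24, 26, 28 or 30 min on a plate held at 37 °C and were taken for RNA-Seq once blood had flowed again for 24 h, which gave 27 kidneys, 3 mice for each of the 9 ischemia times. Removal of the right kidney is part of the model, and the paper lists 0 min among the ischemia times of that model. It does not state outright that the sham mice lost the right kidney, so whether comparisons with 0 min are between mice alike in this is not certain. Levels are FPKM, the fragments scaled to transcript length and library size, and they can be set side by side between genes because they are per length.

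Superoxide leaks from the respiratory chain and from oxidases, and superoxide dismutases turn it into hydrogen peroxide. Catalase splits hydrogen peroxide inside peroxisomes, organelles in which the proximal tubule is rich, and peroxiredoxins reduce it in the cytosol, mitochondria, peroxisomes and endoplasmic reticulum. Most peroxiredoxins are reduced again by thioredoxin, and sulfiredoxin repairs those that peroxide has overoxidized. Reperfusion of the ischemic kidney is known for a burst of these oxidants.

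The members split by direction. Prdx6 rose with ischemia and reached 253 ± 18.6 FPKM at 28 min against 115 ± 3.91 in the sham kidneys (SD, n = 3), and Prdx1 was highest at the same time. Cat, Prdx5, Sod1 and Sod2 had their highest mean in the sham kidneys and their lowest at 30 min, when Cat was at 42.7% and Sod2 at 52.3% of the sham mean. In FPKM, Sod3 stood above the sham kidneys at most times up to 26 min and below them at 28 and 30 min. Of the times up to 26 min, only 20 min passed the test after quantile normalization. Prdx3 passed the test at 28 and 30 min, where it was lower, and Prdx2 moved within a 1.17-fold range of means. Prdx4 passed the test at none of the 8 ischemia times after quantile normalization. The span between the highest and the lowest mean over the 9 times was 2.34-fold for Cat, 2.19-fold for Prdx6, 2.05-fold for Sod3, 1.91-fold for Sod2, 1.79-fold for Prdx5, 1.58-fold for Prdx1, 1.45-fold for Sod1, 1.33-fold for Prdx4 and 1.29-fold for Prdx3. In whole-kidney RNA fewer cells of a type and less RNA per cell cannot be told apart.

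**Figure D1:**
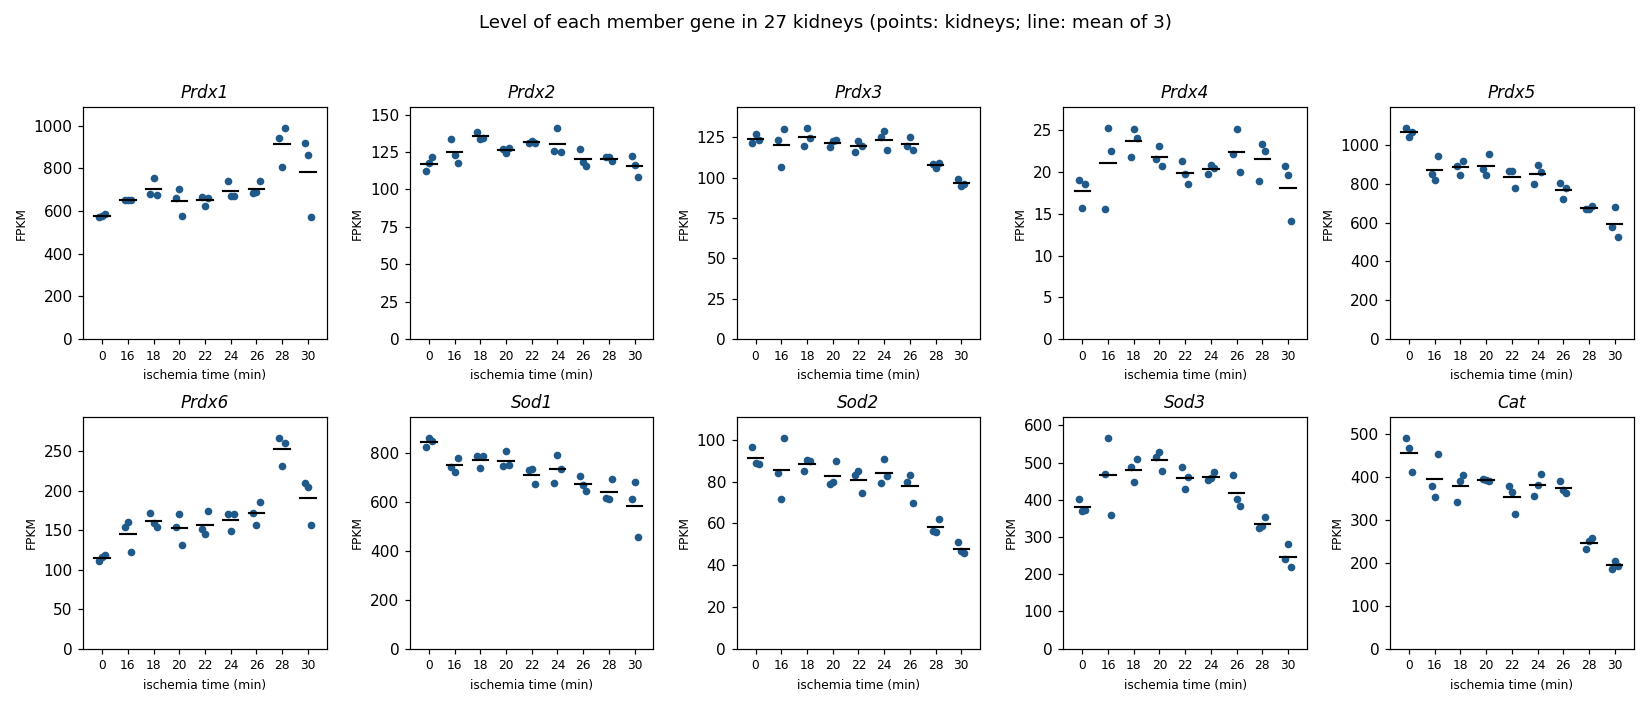
FPKM of the 10 members in each of the 27 kidneys (points) and the mean of the 3 kidneys (line) against ischemia time in minutes, each panel with its own axis from 0. Cat, Sod2 and Sod3 step down between 26 and 28 min while Prdx6 steps up, and in the Prdx6 panel all 24 clamped kidneys lie above the sham kidneys.

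The kidneys resembled each other as whole libraries, with 16498 to 16904 genes above 0 FPKM, but 2 stood apart in ways that touch the members. At 30 min, replicate 3 held a summed level of 2401 FPKM for 5 markers of the loop of Henle and distal tubule against 634 and 654 in the other 2 kidneys, and 508 FPKM for 8 markers of vascular smooth muscle, pericytes and fibroblasts against 217 and 153. Its 10 members summed to 2392 FPKM, the lowest of the 27 kidneys, against 3035 and 3193. At 16 min, replicate 3 had 3645 FPKM of 8 proximal tubule markers against 2460 and 3010, and 44.6 FPKM of 6 macrophage and monocyte markers against 106 and 102. Where a member's call changed without either kidney, the value without it is given. None of the 8 proximal tubule, 5 loop and distal tubule, 6 collecting duct and 4 podocyte markers was at 0 in all kidneys of any time. The same held for the markers of every other cell type, blood cells included, so it does not test the kidney label.

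The windows before the start of Prdx1, which rose at 28 min, and of Sod1 and Cat, which fell, are shown to set their letters beside these directions. They are the 250 bases upstream of each RefSeq gene start in GRCm38.p6, 5′ to 3′ on the gene's strand, with capitals marking a match to the core of the antioxidant response element, TGACNNNGC, read here on the opposite strand.
Prdx1 (chr4:116685349-116685598, plus strand): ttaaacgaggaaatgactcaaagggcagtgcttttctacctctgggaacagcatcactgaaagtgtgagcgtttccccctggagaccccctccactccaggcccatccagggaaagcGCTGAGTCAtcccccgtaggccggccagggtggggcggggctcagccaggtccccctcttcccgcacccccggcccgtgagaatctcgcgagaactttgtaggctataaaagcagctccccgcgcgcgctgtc
Sod1 (chr16:90220512-90220761, plus strand): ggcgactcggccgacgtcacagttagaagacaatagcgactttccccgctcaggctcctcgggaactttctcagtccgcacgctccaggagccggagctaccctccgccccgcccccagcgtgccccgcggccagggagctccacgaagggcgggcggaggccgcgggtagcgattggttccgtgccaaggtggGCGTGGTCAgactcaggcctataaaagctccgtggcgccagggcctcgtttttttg
Cat (chr2:103485154-103485403, minus strand): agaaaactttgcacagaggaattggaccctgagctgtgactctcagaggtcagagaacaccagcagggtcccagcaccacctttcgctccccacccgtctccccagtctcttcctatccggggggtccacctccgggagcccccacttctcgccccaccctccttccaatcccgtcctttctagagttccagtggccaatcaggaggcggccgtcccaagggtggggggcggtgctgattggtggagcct
Windows were matched for 8 of the 10 members. The core was found in 2 of them, Prdx1 as GCTGAGTCA beginning 133 bases before the start (position -133) and Sod1 as GCGTGGTCA (position -56), beside 12.4% of all 32851 windows of the same length, and it is present both in a member that rose and in one that fell. The estrogen-related receptor element TCAAGGTCA (0.423% of windows), the consensus NF-kappaB site (0.155%) and the direct repeat 1 element of PPAR and HNF4 (0.0396%) matched none of the 8 on either strand. A match describes the letters of the window and is not a site of binding.

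Of the superoxide dismutases, Sod1, the copper and zinc enzyme of the cytosol (GRCm38.p6, chr16:90220762-90226333), was the most abundant, with 823, 862 and 850.1 FPKM in the sham kidneys. At 16 to 26 min the 18 kidneys lay between 647 and 809 FPKM with a median of 737, and all 18 were below every sham kidney. At 28 min the kidneys read 617, 612 and 693 FPKM, and at 30 min 614, 682 and 458, the last from replicate 3. No kidney at 28 or 30 min overlapped the sham kidneys, whereas the 28 min kidneys overlapped those of 26 min, at 705, 669 and 647. On the log2(FPKM + 1) scale after quantile normalization, Sod1 fell by 0.54 ± 0.08 at 28 min (SE, adjusted p = 1.88e-05) and by 0.60 ± 0.08 at 30 min (adjusted p = 3.94e-06), each against 0 min. Without the 30 min replicate 3 the log2 fold change at 30 min was -0.48 (adjusted p = 1.69e-05).

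Sod2 makes the manganese enzyme of the mitochondrial matrix (chr17:13007839-13018119). It read 96.9, 89.2 and 88.6 FPKM in the sham kidneys and 70.02 to 101 with a median of 83.1 at 16 to 26 min, when 13 of 18 kidneys were below every sham kidney. At 28 min it read 56.6, 56.1 and 62.2 FPKM, and at 30 min 50.9, 46.9 and 45.9. All 6 kidneys of the longest times were therefore below all 21 others, and the 30 min kidneys were below those of 28 min. The log2 fold change against 0 min was -0.28 at 26 min (adjusted p = 0.0351), -0.69 at 28 min (adjusted p = 6.93e-06) and -0.91 at 30 min (adjusted p = 1.42e-07), each with an SE of 0.10. The call at 26 min was lost without quantile normalization (-0.23, adjusted p = 0.0652) and at a constant sum (-0.21, adjusted p = 0.146), and held in 7 of 14 alternatives. Without the 16 min replicate 3, Sod2 passed at 16 min (-0.28, adjusted p = 0.0187), where it had been at -0.14. The level of Sod1 was 8.50 to 9.67 times that of Sod2 in the sham kidneys and 9.98 to 14.5 times at 30 min.

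Sod3, the secreted enzyme that binds the extracellular matrix (chr5:52363804-52369738), followed a different course. Sham kidneys had 403, 369 and 372 FPKM, and at 20 min the values were 515, 527 and 478. Of the 18 kidneys from 16 to 26 min, 16 were above every sham kidney, with a range of 359 to 567 FPKM. The values then fell below the sham range, to 324, 329 and 353 FPKM at 28 min and 239.6, 282 and 219.7 at 30 min, and the groups at 28 and 30 min did not overlap each other. Its log2 fold change against 0 min was 0.29 at 20 min (adjusted p = 0.0169), -0.33 at 28 min (adjusted p = 0.00318) and -0.62 at 30 min (adjusted p = 3.43e-06), with an SE of 0.08. The fall at 28 min against 0 min depended on scaling: without quantile normalization it was -0.18 (adjusted p = 0.210), with alternatives for this value ranging from 0.00314 to 0.210 in adjusted p. The rise at 20 min held in 10 of 14 alternatives. The other times from 16 to 26 min did not pass after quantile normalization, with adjusted p from 0.146 to 0.858. Of these, 18 min passed without quantile normalization (0.33, adjusted p = 0.0376) and at a constant sum (0.31, adjusted p = 0.0319). At a constant sum 24 min passed too (0.28, adjusted p = 0.0485). Without the 16 min replicate 3, Sod3 passed at 16 min (0.27, adjusted p = 0.0202), where it had been at 0.16. Sod3 was also the member that passed the test between 30 and 28 min, at -0.30 (adjusted p = 0.0252).

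Catalase, the peroxisomal enzyme (chr2:103453904-103485153), fell most of the 10 members at 28 and 30 min. The sham kidneys had 490.2, 466 and 411 FPKM, and the 18 kidneys from 16 to 26 min ranged from 313 to 453 with a median of 380.0, 17 of them below every sham kidney. The exception was the 16 min replicate 3, at 453 FPKM, the kidney with the high proximal tubule markers. At 28 min Cat read 232, 249.9 and 257 FPKM and at 30 min 186, 205 and 193. Neither time overlapped any shorter time, and 30 min lay below 28 min. The log2 fold change against 0 min was -0.36 ± 0.12 at 16 min (SE, adjusted p = 0.0405), -0.41 at 20 min (adjusted p = 0.0178), -0.47 at 24 min, -0.46 at 26 min, -1.03 at 28 min (adjusted p = 8.59e-07) and -1.26 at 30 min (adjusted p = 3.48e-08). Without the 16 min replicate 3 the value at 16 min was -0.56 (adjusted p = 0.000322), and without quantile normalization it was -0.21 (adjusted p = 0.102). Up to 26 min the size of the fall depended on the scaling. At 20 min it was -0.21 without quantile normalization (adjusted p = 0.0930) and -0.22 at a constant sum (adjusted p = 0.122), and at a constant sum neither 24 min (-0.26, adjusted p = 0.0585) nor 26 min (-0.25, adjusted p = 0.0555) passed. Cat passed under all 3 scalings at 18, 22, 28 and 30 min.

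The peroxiredoxins of the cytosol did not move alike. Prdx1 (chr4:116685599-116700000) read 571, 575 and 585 FPKM in the sham kidneys, 577 to 757 with a median of 670.0 at 16 to 26 min, 944, 807 and 989 at 28 min, and 917, 864 and 574 at 30 min. It was above every sham kidney in 17 of the 18 intermediate kidneys and in all 3 at 28 min, and at 30 min the 574 of replicate 3 lay inside the sham range. After quantile normalization Prdx1 did not pass the test at any time from 16 to 26 min. Its log2 fold changes there ran from -0.01 to 0.15, with adjusted p from 0.370 to 0.960. At a constant sum it passed at 26 min (0.32, adjusted p = 0.0375). Prdx1 rose by 0.41 ± 0.11 at 28 min against 0 min (log2, SE, adjusted p = 0.00584), and the value was 0.66 without quantile normalization (adjusted p = 0.000114) and 0.64 at a constant sum (adjusted p = 9.15e-05). At 30 min the log2 fold change of 0.21 had an adjusted p of 0.142. It was 0.35 without the 30 min replicate 3 (adjusted p = 0.00921) and 0.41 without quantile normalization (adjusted p = 0.00599), with alternatives ranging from 0.00438 to 0.493 in adjusted p. The annotated Prdx1 gene overlaps the long noncoding gene AV051173, and the sources used here do not say whether reads were counted by strand, so reads of both cannot be told apart.

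Prdx2 is the peroxiredoxin abundant in red blood cells (chr8:84969622-84974811), and it stayed between 108 and 141 FPKM in all 27 kidneys. The sham kidneys had 112, 118 and 122 FPKM, the 18 min kidneys 138, 134 and 134, and the 30 min kidneys 123, 116 and 108. The 18, 20, 22 and 24 min kidneys were above all sham kidneys, and those of 30 min overlapped them. Prdx2 rose at 18 min (log2 fold change 0.14, adjusted p = 0.0185) and 22 min (0.13, adjusted p = 0.0321) and had 0.05 at 30 min (adjusted p = 0.316), a value whose sign changed with the scaling. The call held in 11 of 14 alternatives at 18 min and in 6 of 14 at 22 min, where the adjusted p reached 0.137. Red blood cell and reticulocyte markers summed to 702 to 1150.3 FPKM at 18 min, 563 to 1142 at 22 min and 134 to 657 at 0 min. Of these 7 markers, 4 were higher in the test at 18 min and 4 at 22 min, the times at which Prdx2 passed. Among all genes 27.8% and 28.8% passed at these times in either direction. At 30 min the markers reached 814 to 1489 FPKM and 7 of 7 were higher, while Prdx2 was not above the sham kidneys. At 20 and 24 min the sums were 414 to 485 and 516 to 589 FPKM, inside the range at 0 min, and 0 of 7 markers were higher. The part of these cells in the Prdx2 values was not tested.

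Prdx6, the member that uses glutathione and also acts on phospholipids (chr1:161240112-161251210), rose at 7 of the 8 ischemia times. It read 111, 116 and 119 FPKM in the sham kidneys, 122 to 186 with a median of 158 at 16 to 26 min, 267, 232 and 260.2 at 28 min, and 209, 205 and 157 at 30 min. All 24 clamped kidneys were above all 3 sham kidneys, the lowest of them being the 16 min replicate 3 at 122 FPKM. Against 0 min the log2 fold change was 0.31 ± 0.11 at 16 min (SE, adjusted p = 0.0614), 0.42 at 18 min, 0.55 at 26 min, 1.14 at 28 min (adjusted p = 1.07e-07) and 0.82 at 30 min (adjusted p = 3.87e-06). Without the 16 min replicate 3 the 16 min value was 0.42 (adjusted p = 0.0106). The call at 20 min (0.34, adjusted p = 0.0317) held in 8 of 14 alternatives. Mice also carry Prdx6b, a close copy of Prdx6, and how reads common to both were divided is uncertain. From 28 to 30 min its kidneys went to a lower range with no overlap, a difference of -0.32 that missed the threshold (adjusted p = 0.0627) and passed it without quantile normalization (-0.42, adjusted p = 0.0232) and at a constant sum (-0.40, adjusted p = 0.0181).

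Of the peroxiredoxins of the organelles, Prdx5, found in mitochondria, peroxisomes and cytosol, was the most abundant member in the sham kidneys (chr19:6906697-6910106), with 1086, 1043 and 1064 FPKM. All 18 kidneys of 16 to 26 min were below them, between 722 and 954 FPKM with a median of 853. At 28 min the kidneys read 671, 669 and 688 FPKM and at 30 min 576, 679 and 527. The sham kidneys overlapped no other time, and the 28 min kidneys lay below all those of 26 min, at 805, 722 and 779.9. Prdx5 fell by 0.28 ± 0.07 at 16 min (log2, SE, adjusted p = 0.0108), by 0.80 at 28 min (adjusted p = 3.75e-08) and by 0.89 at 30 min (adjusted p = 3.89e-09), each against 0 min, and passed the test at all 8 times, at 16 min in 12 of 14 alternatives. The gene overlaps Trmt112, so reads in the shared part are uncertain as for Prdx1.

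Prdx3, the mitochondrial peroxiredoxin (chr19:60864066-60874538), read 122, 127 and 123 FPKM in the sham kidneys and 107 to 131 with a median of 122 at 16 to 26 min. At 28 min it read 108, 106 and 109 FPKM and at 30 min 99.1, 94.6 and 96.1. The 30 min kidneys were below all others, and those of 28 min below the sham kidneys. Its log2 fold change was -0.20 ± 0.06 at 28 min (SE, adjusted p = 0.00593) and -0.30 at 30 min (adjusted p = 0.000200), and the 6 shorter times had values between -0.07 and -0.04 that did not pass. At 30 min the mitochondrial Sod2 and Prdx3 were thus at 52.3% and 77.8% of their sham means.

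Prdx4, the peroxiredoxin of the endoplasmic reticulum that helps proteins form disulfides (chrX:155323918-155342272), was the least abundant member, at 19.1, 15.7 and 18.6 FPKM in the sham kidneys. It read 21.8, 25.2 and 24.1 FPKM at 18 min, 18.9, 23.4 and 22.5 at 28 min and 20.7, 19.6 and 14.1 at 30 min. The kidneys of 18, 20, 24 and 26 min were above all sham kidneys, and those of 30 min spanned them. Its log2 fold changes against 0 min lay between -0.09 and 0.31 with an SE of 0.14, and none passed after quantile normalization. Without it, 18 min passed (0.40, adjusted p = 0.0449), as it did in 1 of 14 alternatives. The sign at 30 min changed with the scaling and without the 30 min replicate 3.

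The order of the 9 means differed among the members, and few neighbours in it stood apart. For Cat, Sod2, Sod3 and Prdx3 the lowest mean was that of 30 min and the next that of 28 min, each without overlap with the next higher mean, and all other neighbours overlapped. For Prdx6 the lowest was 0 min, followed by 16, 20, 22, 18, 24 and 26 min, then 30 and 28 min, and only 0 against 16 min and 30 against 28 min were without overlap. For Prdx1 the order ran 0, 20, 22, 16, 24, 18, 26, 30 and 28 min, with 1 pair of neighbours apart, 16 and 24 min. For Prdx5 and Sod1 the sham mean was the highest and stood apart from the next, and for Prdx5 28 min also stood apart from 26 min. For Prdx2 the 22 and 18 min means, the highest, were apart. For Prdx4 no neighbours stood apart.

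The same sham kidneys enter every comparison with 0 min, so the counts at the 8 times are not independent of each other. At an adjusted p under 0.05 in limma, 2 of 10 members differed from 0 min at 16 min (Prdx5 and Cat, both lower), beside 19.0% of all genes tested, and 5 did without the 16 min replicate 3, beside 28.5% of all genes in that fit. For 18, 20, 22, 24 and 26 min the counts were 4, 4, 5, 3 and 5, beside 27.8%, 22.8%, 28.8%, 28.3% and 30.1% of all genes. At 28 min the count was 8, beside 48.2% of all genes, with 2 higher (24.5% of all genes) and 6 lower (23.6%). At 30 min the count was 7, beside 52.3%, with 1 higher (26.9%) and 6 lower (25.4%), and it was 8 without the 30 min replicate 3, beside 9083 of 18155 genes in that fit. At 16 and 24 min the members' share was close to that of all genes. All members stood at 14.1 FPKM or more in every kidney. A fit limited to the 12929 genes with at least 1 FPKM in at least 3 kidneys had higher shares. For 16 to 30 min in order they were 24.5%, 35.8%, 29.9%, 37.2%, 37.2%, 38.9%, 60.5% and 63.9%. In that fit 2, 4, 4, 4, 3, 5, 8 and 7 members passed, close to these shares at 18, 22 and 30 min too. In FPKM, the members without overlap with the sham kidneys numbered 4, 8, 7, 8, 8, 7, 8 and 7 of 10 for 16 to 30 min in order, beside 28.1%, 42.1%, 38.1%, 44.3%, 42.2%, 41.9%, 56.9% and 54.5% of all genes. With the added demand of an absolute log2 fold change above 1, Prdx6 and Cat passed at 28 min (8.48% of all genes) and Cat at 30 min (10.7%). At 28 min 7 members passed under each of 3 scalings (quantile normalization, none, and a constant sum of FPKM), namely Prdx1, Prdx3, Prdx5, Prdx6, Sod1, Sod2 and Cat. At 30 min 7 did so as well, namely Prdx3, Prdx5, Prdx6, Sod1, Sod2, Sod3 and Cat.

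**Figure D2:**
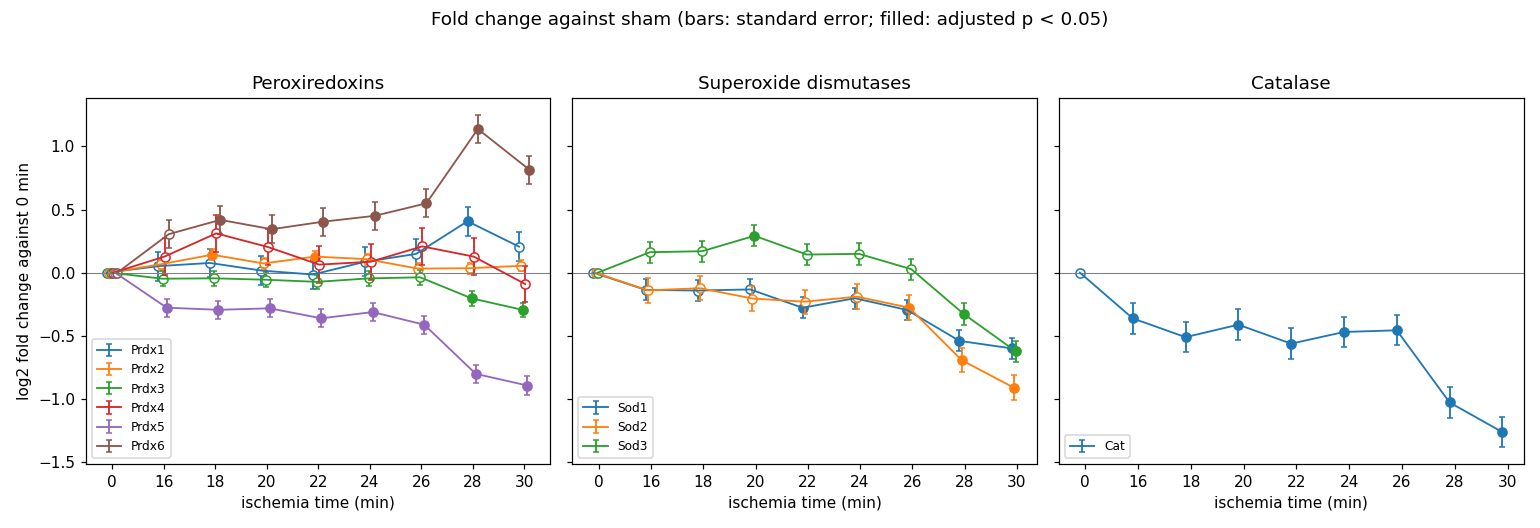
Log2 fold change of each member against 0 min, on the quantile normalized log2(FPKM + 1) scale, by ischemia time in minutes, with bars of 1 SE from limma and filled points where the adjusted p was under 0.05. Cat and Prdx5 are filled at all 8 times, Prdx6 at 7, and Prdx4 at none, although at 16, 20, 24 and 26 min Cat is not past the threshold under at least 1 other scaling.

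The step from 26 to 28 min was tested as its own contrast in the same fit. Of the 10 members 7 passed, beside 19.3% of all genes, with 1 higher (10.8%) and 6 lower (8.52%). Prdx6 was higher by 0.59 on the log2 scale (adjusted p = 0.00115). Cat was at -0.57 (adjusted p = 0.00247), Sod2 at -0.41 (adjusted p = 0.00509), Prdx5 at -0.39 (adjusted p = 0.000916) and Sod3 at -0.35 (adjusted p = 0.00613). Sod1, at -0.24 (adjusted p = 0.0425), and Prdx3, at -0.17 (adjusted p = 0.0467), were near the threshold and passed it in 5 and 4 of 14 alternatives. In FPKM, 7 members had 28 min kidneys apart from those of 26 min, beside 36.5% of all genes, Prdx1 in place of Sod1. Prdx6, Cat, Sod2 and Prdx3 passed under all 3 scalings. Sod1 did not pass without quantile normalization (-0.07, adjusted p = 0.681) or at a constant sum (-0.12, adjusted p = 0.427), Prdx5 was at -0.18 without quantile normalization (adjusted p = 0.0981), and Prdx1, at 0.26 with it (adjusted p = 0.127), was at 0.37 without it (adjusted p = 0.0358). Quantile normalization moved the 151 genes with a mean of at least 500 FPKM, to which Prdx1, Prdx5 and Sod1 belong, by 0.10 on the log2 scale at 0 min, 0.04 at 26 min and -0.08 at 28 min.

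**Figure D3:**
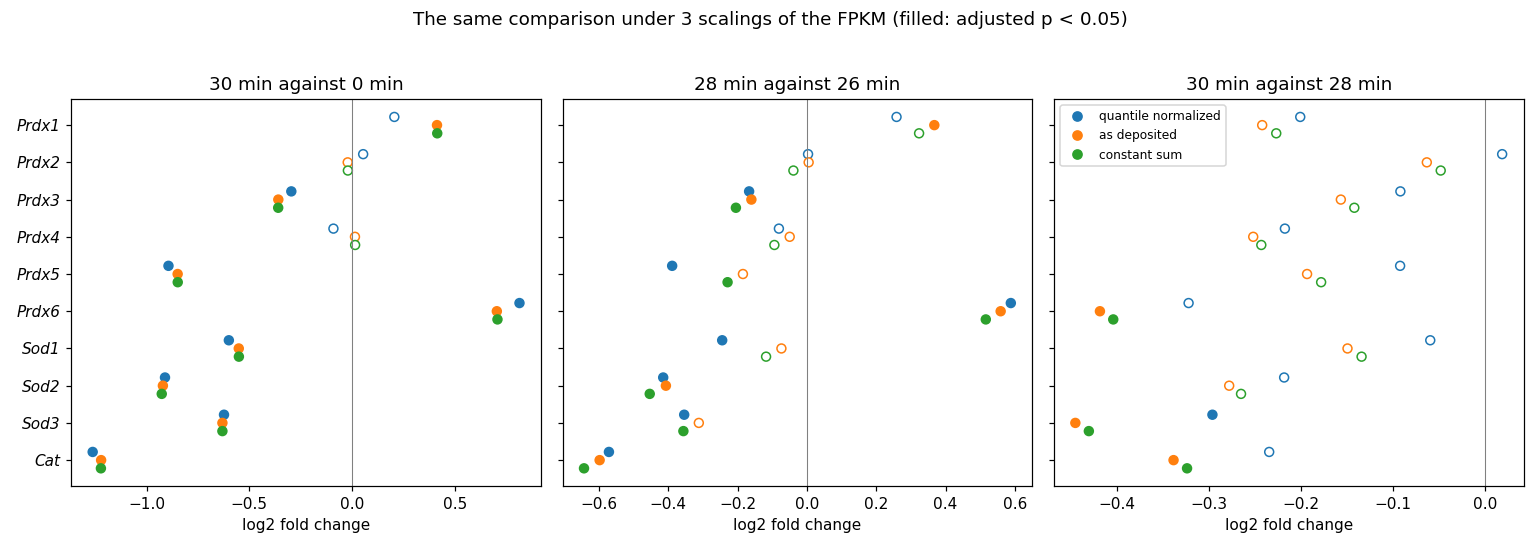
Log2 fold changes of the 10 members for 30 against 0 min, 28 against 26 min and 30 against 28 min under 3 scalings of FPKM, with filled points where the adjusted p was under 0.05. The points of Prdx6, Cat and Sod2 are filled under all 3 in the first 2 comparisons, as are those of Sod3 in the last, and for 28 against 26 min those of Prdx1, Prdx5, Sod1 and Sod3 change with the scaling.

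Within the 16 to 26 min range the members showed no trend that passed the test. The slope on ischemia time passed at an adjusted p under 0.05 in limma for 0 of 10 members, beside 0.0110% of all genes, and at an unadjusted p under 0.05 for 2, beside 8.81% of all genes, Prdx6 (0.02 per minute on the log2 scale, adjusted p = 0.566) and Sod1 (-0.02, adjusted p = 0.438). Between 30 and 28 min, 1 of 10 members passed (Sod3), beside 13.2% of all genes, although Prdx3, Prdx6, Sod2, Sod3 and Cat were all lower at 30 min with no overlap in FPKM, 5 of 10 beside 28.3% of all genes. Without the 30 min replicate 3, Sod3 was at -0.26 between these times (adjusted p = 0.126) and no member passed, beside 4.86% of all genes in that fit.

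The members' falls ran beside those of tubule markers. The 8 proximal tubule markers summed to 3297 to 3640.4 FPKM in the sham kidneys, 2038 to 3400.3 at 26 min, 1227 to 1393 at 28 min and 770 to 865 at 30 min, and 7 of 8 were lower at 30 min with a median log2 fold change of -2.11, against -1.26 for Cat and -0.89 for Prdx5. All 5 loop and distal tubule markers were lower at 30 min as well, although their sum in replicate 3 (2401 FPKM) was above the sham range. Of 6 neutrophil markers 5 were higher at 30 min, with sums of 23.03 to 30.9 FPKM against 5.36 to 11.7 in the sham kidneys, and of 8 markers of vascular smooth muscle, pericytes and fibroblasts 6 were higher and 1 lower. Of 6 macrophage and monocyte markers 3 were higher and 1 lower, of 6 collecting duct markers 2 were lower, and 2 of 4 podocyte and 3 of 5 endothelial markers were higher. Of 5 T, B and natural killer cell markers 2 were lower, with sums of at most 3.02 FPKM in any sham kidney. Among all genes tested 26.9% were higher and 25.4% lower at 30 min, and the 2 of 6 collecting duct markers were near the latter. The part of these cell types in the members' values was not tested.

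The balance between members shifted within each kidney. Prdx1 was at 1.16 to 1.43 times the level of Cat in the sham kidneys, 1.76 to 2.05 times at 26 min, 3.23 to 4.08 times at 28 min and 2.98 to 4.92 times at 30 min. Against Prdx5, Prdx1 went from 0.525 to 0.551 times its level in the sham kidneys to 1.21 to 1.44 times at 28 min and 1.09 to 1.59 times at 30 min. In both ratios the 28 and 30 min kidneys lay above all sham and 26 min kidneys, the 30 min replicate 3 being the lowest of its group. A common scale factor of a kidney cancels in these ratios.

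Genes of the system that reduces the peroxiredoxins mostly rose. Of the 14 genes of the thioredoxin, sulfiredoxin and glutaredoxin system, 12 passed the test at 30 min against 0 min, 10 higher and 2 lower, with a median log2 fold change of 0.44 against 0.00077 over all genes tested. Over all genes 52.3% passed at 30 min, 26.9% higher and 25.4% lower. With only the 0 and 30 min kidneys in the fit 7 of the 14 passed, beside 42.1% of all genes. At 28 min 8 were higher and 2 lower, beside 24.5% and 23.6% of all genes, with a median of 0.45. Srxn1, sulfiredoxin, went from 29.5 ± 3.46 to 243 ± 66.7 FPKM at 30 min (SD, n = 3), a log2 fold change of 3.0 (adjusted p = 7.20e-11), and Txnrd1, the cytosolic thioredoxin reductase, from 52.8 ± 1.45 to 149.6 ± 15.9 FPKM (1.54, adjusted p = 3.41e-09). Txnip, which binds and inhibits thioredoxin, was also among those that rose (1.22, adjusted p = 2.55e-05). Sesn1 and Sesn2, sestrins, fell from 6.70 to 3.61 FPKM (-0.86, adjusted p = 1.42e-05) and from 14.6 to 11 FPKM (-0.48, adjusted p = 0.0105). The call for Sesn2 was lost under some alternatives, with adjusted p up to 0.110.

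Of 11 glutathione peroxidase and glutathione synthesis genes, 4 were higher and 4 lower at 30 min, with a median of 0.14. Among all genes 26.9% were higher and 25.4% lower. Without the 30 min replicate 3, 7 of the 11 passed in all, beside 9083 of 18155 genes in that fit. Gpx1, a cytosolic and mitochondrial glutathione peroxidase that like Cat removes hydrogen peroxide, fell from 1484 ± 110 to 669 ± 77.3 FPKM (-1.29, adjusted p = 5.53e-10), and Gpx6 from 59.5 to 9.08 FPKM (-2.81, adjusted p = 7.51e-06). Gpx7 and Gpx8, glutathione peroxidases of the endoplasmic reticulum, rose from 0.927 to 3.04 FPKM (0.95, adjusted p = 0.000190) and from 11.3 to 23.3 FPKM (0.88, adjusted p = 1.99e-06). Prdx4, which works in the same compartment, did not pass. Of 8 oxidative folding genes of that compartment, 1 was higher and 3 were lower, with a median of -0.18, a share close to the 52.3% of all genes that passed. These were Qsox1, a sulfhydryl oxidase (8.55 to 20.1 FPKM, 1.03, adjusted p = 2.59e-07), Ero1b, which passes oxidizing equivalents to protein disulfide isomerases (4.75 to 2.05 FPKM, -1.0, adjusted p = 4.23e-07), Pdia4, such an isomerase (58.4 to 38.5 FPKM, -0.64, adjusted p = 0.000613), and Pdia3.

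Peroxins, the proteins that assemble the peroxisome in which catalase works, mostly fell. Of 16 peroxins, 11 were lower and 0 higher at 30 min, beside 25.4% and 26.9% of all genes, with a median of -0.44. At 28 min 10 were lower and 0 higher, beside 23.6% and 24.5% of all genes, with a median of -0.32. Pex11g fell from 9.65 to 4.47 FPKM (-1.07, adjusted p = 3.99e-07) and Pex7, the receptor that imports some peroxisomal enzymes, from 34 to 20.7 FPKM (-0.77, adjusted p = 2.18e-07). The fall of Cat was larger, at -1.26. Of 20 oxidases that make superoxide or hydrogen peroxide, 9 were lower and 2 higher, with a median of -0.20, a share passed close to the 52.3% of all genes. The falls were led by peroxisomal enzymes, Hao2, a hydroxyacid oxidase (218 to 15.9 FPKM, -3.71, adjusted p = 1.33e-10), and Acox2, an acyl-CoA oxidase (72.8 to 8.90 FPKM, -2.97, adjusted p = 8.56e-10). The 2 that were higher, Uox and Hao1, were listed at 0 in every sham kidney and at means of 0.56 and 0.06 FPKM at 30 min, levels at which no fold is given, and Hao1 passed in 7 of 13 alternatives and did not without the 30 min replicate 3 (adjusted p = 0.213).

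Of 10 genes that supply copper or manganese, the metals of the superoxide dismutases, 5 were lower and 3 higher at 30 min. The list had a median of -0.27. Among all genes 25.4% were lower and 26.9% higher, and the 3 of 10 that were higher were near the latter. Without the 30 min replicate 3, 6 passed in all, near the share of all genes in that fit (9083 of 18155). Ccs, the chaperone that loads copper into Sod1, fell from 95.4 ± 2.69 to 39.5 ± 3.77 FPKM (-1.25, adjusted p = 1.64e-09) beside -0.60 for Sod1 itself. Slc39a8, a carrier of manganese and zinc, fell from 35.6 to 5.27 FPKM (-2.64, adjusted p = 2.73e-09). Atox1, which hands copper to the secretory pathway in which Sod3 is made, rose from 139 to 224 FPKM (0.80, adjusted p = 2.26e-05), and Slc39a14, another carrier of manganese, from 10.6 to 15.5 FPKM (0.38, adjusted p = 0.0284), a call lost without the 30 min replicate 3 (0.20, adjusted p = 0.223).

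**Figure D4:**
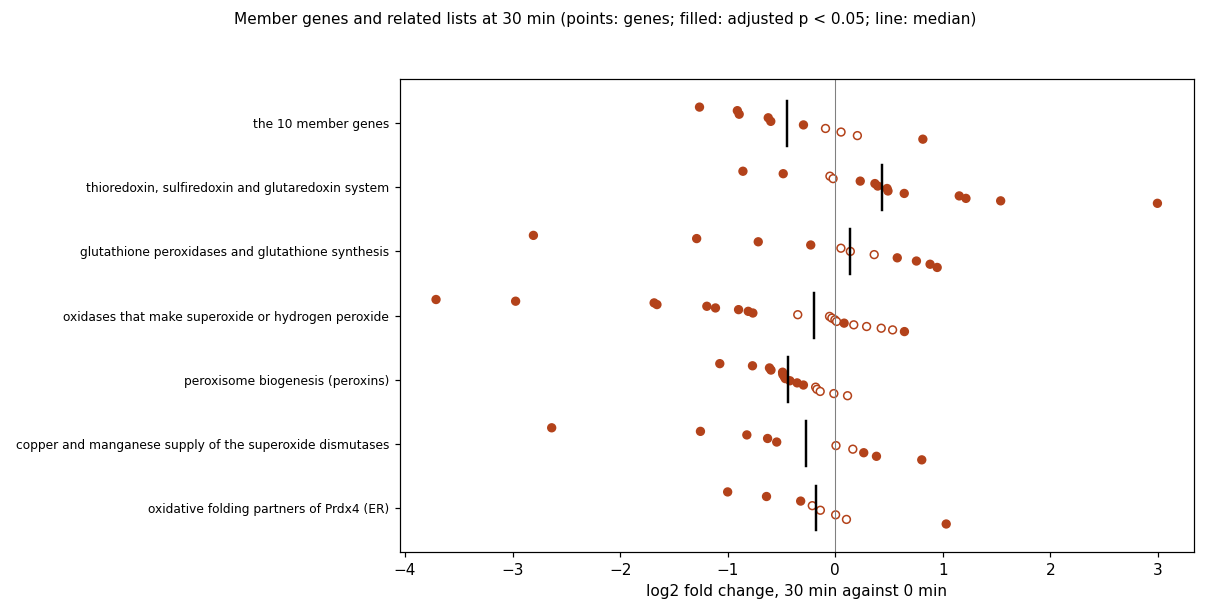
Log2 fold change at 30 min against 0 min of the 10 members and of every gene in the 6 lists around them, a point per gene, filled where the adjusted p was under 0.05, with the median of each list. All peroxins but Pex14 lie below 0, and most of the thioredoxin, sulfiredoxin and glutaredoxin genes lie above it.

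The genes most like each member over the 27 kidneys were taken by Pearson r of the normalized log2 values among 6568 genes with a mean of at least 10 FPKM. These correlations share the 9 ischemia times and the libraries and are descriptions. Sod2 was most like 4931406C07Rik, Sord and Gpr137b (r = 0.982, 0.980 and 0.979), Prdx5 most like Adhfe1, Acat1 and Dmgdh (0.977, 0.976 and 0.975), and Cat most like Aldh6a1, Mmut and Abhd3 (0.974, 0.973 and 0.972). Prdx6 was most like Slc48a1, Eef1b2 and Psmc4 (0.970, 0.968 and 0.965), Sod1 like Ccdc107, Adtrp and Macrod2 (0.947, 0.946 and 0.942), Sod3 like Acy3, Trim7 and Cideb (0.938, 0.931 and 0.931), and Prdx3 like Aifm1, Uqcrc2 and Slc25a13 (0.931, 0.927 and 0.919). The values were lower for Prdx1, with Plaa, Commd3 and Psma4 (0.850, 0.843 and 0.840), for Prdx2, with Dad1, Uqcrq and Ndufb7 (0.769, 0.760 and 0.730), and for Prdx4, with Mrpl16, Cks2 and D630023F18Rik (0.745, 0.726 and 0.723). Among the members themselves r was 0.95 between Prdx5 and Cat, 0.94 between Prdx5 and Sod1, 0.72 between Prdx1 and Prdx6, and -0.89 between Prdx5 and Prdx6.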

How the data were processed

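The samples are 27 left kidneys profiled by RNA-Seq and grouped by their labelled ischemia time. The unit of the deposited table is FPKM, linear values for each gene symbol in each kidney, and the authors' processing notes name Bowtie2, RSEM, DESeq2 and GRCm38.p6, with tool versions not given in the sources used here. No read counts were used, so depth is unknown and precision rests on the 3 replicates of a time, which are different mice.

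For the tests, 1 was added to FPKM as a pseudocount before the log2, the values were quantile normalized, and limma 3.58.1 (R 4.3.3) fitted all 27 kidneys together with a mean for each time. Genes entered when at least 3 kidneys had FPKM above 0, which left 18188. Fold changes on this scale understate the change of low genes. A gene passed the test at a Benjamini-Hochberg adjusted p-value under 0.05 over all genes tested. An exact permutation test of 3 against 3 kidneys cannot go below 0.1, so single values were compared by overlap. The pathway genes named are the 2 with the largest rise and the 2 with the largest fall in each list among those that passed at 30 min. Txnip and Pdia3 fall outside this rule and were named after their values were seen. Promoter windows, from 250 bases before to 50 after the start, are from RefSeq. Members and lists were chosen with earlier results of these data known. Plots were made in matplotlib 3.10.9 (Python 3.11.15).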

Additional observations from a re-analysis of the deposited data

Results flagged for a closer look

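Between 26 and 28 min of ischemia, neighbouring times in the series, the log2 levels of 7 of 10 members differed in the test of that difference itself, beside 19.3% of all genes. Under the alternatives 5 to 7 members did so, beside 11.3% to 27.4% of all genes. The log2 differences, 28 minus 26 min, were 0.59 for Prdx6, -0.57 for Cat, -0.41 for Sod2, -0.39 for Prdx5, -0.35 for Sod3, -0.24 for Sod1 and -0.17 for Prdx3. Those of Sod1 and Prdx3 passed in 5 and 4 of 14 alternatives. Between 28 and 30 min, where 13.2% of all genes passed, the difference was -0.30 for Sod3, which passed in 8 of 14 alternatives. Proximal tubule markers fell over the same steps, from sums of 2038 to 3400.3 FPKM at 26 min to 1227 to 1393 at 28 min and 770 to 865 at 30 min, and their part in these differences was not tested.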

How the results depend on the processing

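The members' log2 values were recomputed with a pseudocount of 0.1, no quantile normalization, a constant sum of FPKM, a minimum of 1 FPKM, no filter, a trended robust spread, a replicate block, only the groups compared, and without single kidneys. Of 1660 such values, 1524 stayed on their side of the threshold with their sign, 79 no longer passed, 23 newly passed and 34 changed sign without passing either way. No call reversed. The cause of the changes below was not tested. For 16 against 0 min, the 2 members that passed became 1 without quantile normalization, 1 with the replicate block and 0 with only the groups compared (beside 21.4%, 18.5% and 0.0880% of all genes). Without single kidneys they became 0 (without 16 min replicate 2, beside 9.44% of all genes) to 5 (without 16 min replicate 3, beside 28.5%). The members apart in FPKM at 16 min went from 4 to 2 on quantile normalized values. At 20 min the 4, beside 22.8% of all genes, became 1 to 4 without single kidneys. They became 1 or 2 without each sham kidney or 20 min replicate 1 or 2, beside 14.2% to 19.4% of all genes. At 22 min the 5, beside 28.8%, became 2 (without 22 min replicate 3, beside 20.3%) to 5, with 3 without sham replicate 2 (beside 20.7%). For 28 against 0 min, the 2 members past a log2 fold change of 1 became 1 without quantile normalization and 1 at a constant sum, as Cat stood at -0.88 and -0.90, and 1 to 2 without single kidneys (1 without sham replicate 1 or 2 or 28 min replicate 1). For 30 against 28 min, the 1 member became 3 without quantile normalization and at a constant sum (Sod3, Prdx6 and Cat), beside 13.5% and 12.6% of all genes. The count was 0 with only the groups compared (when 0 of all genes passed), and 0 to 1 without single kidneys. It was 0 without each 28 min replicate in turn and without 30 min replicate 3, beside 4.86% to 10.2% of all genes. For 28 against 26 min, the 7 became 5 with a pseudocount of 0.1 and without quantile normalization, 6 at a constant sum, at the 1 FPKM minimum, with the trended robust spread and with the replicate block, and 5 to 6 without single kidneys. Of all genes 11.3% to 27.4% passed in these fits. At 30 min the thioredoxin, sulfiredoxin and glutaredoxin list had 7 genes past the threshold in place of 12 with only the groups compared (beside 42.1% of all genes). The endoplasmic reticulum list had 7 in place of 4 at a constant sum (beside 52.9%). Replicate numbers did not pair the kidneys: deviations of same-numbered kidneys had a median r of -0.01. Unknown depth and 3 kidneys a time limit what small differences, such as those of Prdx2 and Prdx4, can show.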
